A study of Mus musculus with 58 samples.

Results

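In mouse embryonic stem cells, 1444 genomic regions carried a ChIP-seq peak of the ribosome biogenesis factors CIRH1A, UTP3 and UTP6 and a peak in all 3 lists of the paraspeckle protein PSPC1, and no peak of SAFB or SAFB2. They were found by merging the peaks of 9 lists wherever peaks shared at least 1 bp, which gave 67384 regions, and they made up 2.14% of these. hnRNPU was the list that the choice left free: 731 of the 1444 regions had an hnRNPU peak and 713 had none. The regions were selected on the presence of called peaks in these lists, so their number and their peaks in the 6 required lists are a description and were not tested.

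PSPC1 belongs to the DBHS family of RNA-binding proteins, with NONO and SFPQ, and is found in paraspeckles, nuclear bodies built on the long noncoding RNA NEAT1. CIRH1A (also called UTP4), UTP3 and UTP6 are known as components of the small-subunit processome, the nucleolar particle in which the precursor of the small ribosomal subunit is cleaved and folded. hnRNPU, SAFB and SAFB2 are abundant nuclear RNA- and DNA-binding proteins known as scaffold attachment factors. ChIP-seq locates DNA that is crosslinked to a tagged protein, directly or through other molecules, and a peak is a stretch where the reads pile up.

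The series holds 58 samples, of which 9 have a peak list; the other 49 were not used here. All 9 came from untreated embryonic stem cells of strain 129/Ola, and all used 5 µg of FLAG antibody on chromatin broken to 200 to 500 bp. The 2 PSPC1-KI libraries came from AID-FB(KI)-PSPC1 cells, made from CJ9 cells with the tag knocked in, and were fixed with 3% formaldehyde. The CIRH1A-OE, UTP3-OE and UTP6-OE libraries came from FB(OE) lines that overexpress the tagged protein in BirA J1 cells, also fixed with 3% formaldehyde. The PSPC1-OE library came from such a line fixed with 1% formaldehyde. The hnRNPU-OE, SAFB-OE and SAFB2-OE libraries came from BirA J1 overexpression lines fixed with 2 mM of the protein crosslinker DSP and then 1% formaldehyde, treated with DNase I, and purified a second time on streptavidin beads. hnRNPU therefore differs from the 6 required lists in fixation and purification, and PSPC1-KI differs from all other lists in parental line. Among these 9 samples, each protein has 1 library outside the knock-in. The labels do not say that the 2 knock-in libraries came from separate cultures. No p-value was computed over regions, since they are not replicates; the intervals given are Wilson 95% intervals and cover counting error only.

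The lists were of unequal length, from 6670 peaks for SAFB2 to 40217 for UTP6, and the lowest score was 30 in both PSPC1-KI lists and about 50 in the other 7. The score is the authors' own value for a peak, without a stated unit, and is used here only to rank peaks within a list. The CIRH1A list had 9689 peaks, the UTP3 list 14562, the PSPC1-KI lists 18455 and 22926, and the PSPC1-OE list 22785. The number of reads behind a list is unknown here.

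The 3 ribosome factors shared 6821 regions, 10.1% of all. Of these, 5281 also had a PSPC1-OE peak, and 3307 had in addition a peak in at least 1 PSPC1-KI list. All 6 lists met in 1941 regions, of which 497 had a SAFB or SAFB2 peak and were left out. CIRH1A, the shortest of the 6 lists, was the most frequent missing list among the 2435 regions that held only 5 of the 6: 1024 lacked CIRH1A and 345 lacked UTP3. The first knock-in library was missing in 687, the second in 231, and PSPC1-OE in 143. Only 5 regions lacked UTP6 alone, and 2 of them had an hnRNPU peak. The members used 15.2% of the CIRH1A peaks, 10.1% of the UTP3 peaks and 3.72% of the UTP6 peaks. Of the PSPC1 peaks, they used 8.18% in the first knock-in list, 6.63% in the second and 8.18% in the overexpression list.

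Several members only just entered. Of the members, 106 had a best score within 10% of the lowest score of the CIRH1A list, and 61 of the UTP3 list; this held for 1 member in the UTP6 list, 49 and 33 for the knock-in lists and 29 for PSPC1-OE. At the weak end stood chr2:180490311-180491429, the member with the poorest mean rank. Its CIRH1A peak scored 65.9, its UTP3 peak 71.8 and its UTP6 peak 61.4, against 34.7 and 39.1 in the knock-in libraries and 53.6 in PSPC1-OE. It had no hnRNPU peak, and all 6 peaks still shared a core of 179 bp.

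Most members lay in the stronger part of each list, and the lists differed in how far. UTP6 peaks of members were above the median score of their own list in 95.4% of members, against 62.5% for CIRH1A and 67.9% for UTP3. For PSPC1 the share was 74.5% and 82.5% in the knock-in lists and 87.0% in the overexpression list. The top 10% of the UTP6 list supplied the best peak of 626 members (43.4%), and the top 10% of the CIRH1A list that of 227 (15.7%). The shares above the median nearly followed list length, from 9689 peaks for CIRH1A to 40217 for UTP6. They therefore do not compare peak strength between lists, and the part of list length was not tested.

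Although merging can chain peaks that never touch, a common base was the rule rather than the exception. In 1364 of the 1444 members (94.5%, interval 93.2 to 95.5%) at least 1 bp was covered by all 6 lists. Of the remaining 80, 71 had a base covered by 5 lists and 9 a base covered by 4 at most. The longest stretch covered by all 6, here called the core, had a median of 557 bp and ranged from 18 to 2659 bp. It spanned a median 21.2% of the region. PSPC1-OE peaks, the narrowest of the 6, set the core in most cases: 788 cores (57.8%) were an entire PSPC1-OE peak. In 999 members (69.2%) each of the 6 lists had exactly 1 peak. More than 1 peak was most common for PSPC1-OE, with 355 members (24.6%), and was found in 1.66% to 4.57% of members for the other 5 lists.

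The peaks around the core differed in width by list. At the members with a core, median peak widths were 626 bp for PSPC1-OE, 1074 bp for CIRH1A, 1324 bp for UTP3, 1784 bp for UTP6, and 2015 and 2085 bp for the knock-in libraries. The midpoint of the nearest peak lay a median 103 bp from the core centre for CIRH1A, 140.5 bp for UTP3 and 147 bp for UTP6. It lay 233 and 235.5 bp away for the knock-in libraries. For PSPC1-OE the median distance was 0 bp, which follows from how often its peak is the core. A peak of each of the 6 lists covers the core by definition. The distances rose in the same order as the widths, so they say little beyond the widths. At 1000 bp upstream of the core centre, CIRH1A peaks still covered 9.97% of members, UTP3 19.7%, UTP6 37.7%, and the knock-in peaks 48.4% and 50.3%. The PSPC1 lists were thus both the narrowest and the widest of the 6. Knock-in or overexpression of the tagged protein, parental line, fixation and lowest score differ together between them and cannot be told apart. Their read depth is unknown.

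**Figure D1:**
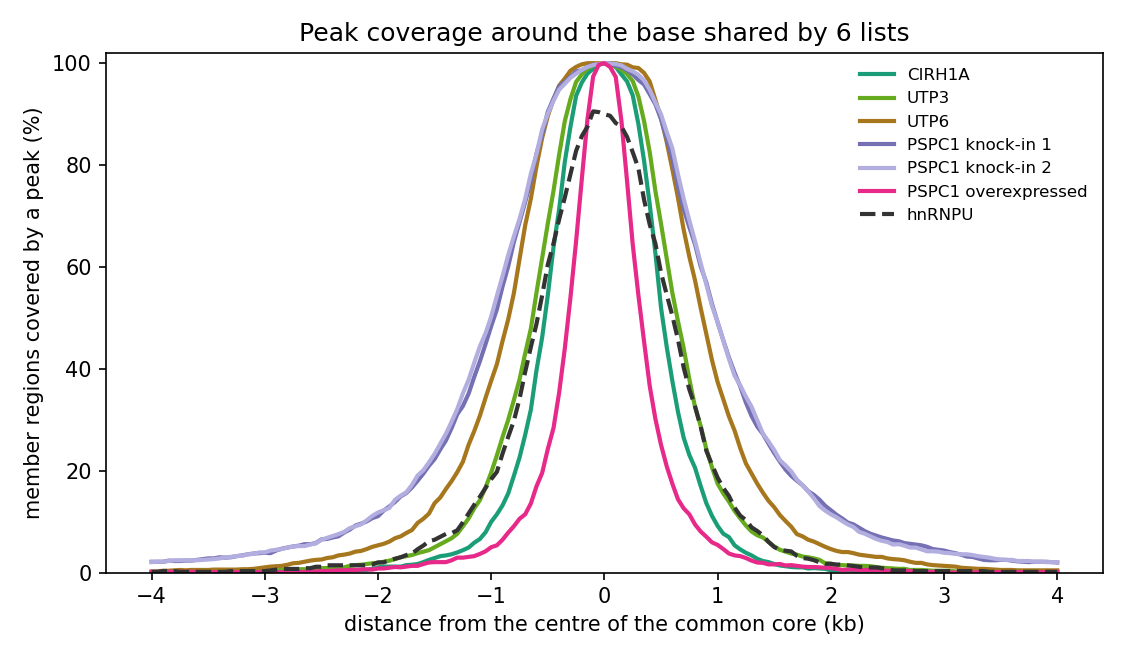
Share of member regions (y axis, %) in which a peak of each list covers a base at a given distance from the centre of the common core (x axis, kb), over the 1364 members with a core; the dashed hnRNPU line is over the 698 of them with an hnRNPU peak. PSPC1-OE is the narrowest curve and the 2 knock-in curves the widest. hnRNPU has its maximum near the core centre. It was not used to find the core, but only hnRNPU peaks merged into the region were counted.

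hnRNPU peaks of members mostly lay over the core. Of the 698 members with both a core and an hnRNPU peak, 670 (96.0%) had an hnRNPU peak that overlapped the core. Only hnRNPU peaks merged into a region were counted, which in itself favours overlap with the core. The overlap to be expected from the merging alone was not computed. In these 670 the midpoint of the hnRNPU peak lay a median 204 bp from the core centre, and within 250 bp in 393 (58.7%, interval 54.9 to 62.3%). The hnRNPU peaks had a median width of 1203 bp at these members, a width between those of the CIRH1A and UTP3 peaks. In the members with hnRNPU, 715 had 1 hnRNPU peak and 16 had 2.

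hnRNPU peaks inside members were also higher in their own list than those elsewhere. The 747 hnRNPU peaks in members had a median score of 85.1 and a median width of 1169 bp. The 9532 hnRNPU peaks in all other regions had a median score of 68.3 and a median width of 769 bp. Those in regions of hnRNPU alone, 2083 peaks, had a median score of 57.1 and a width of 557 bp. Member peaks ranged from 50.1 to 587, so the highest hnRNPU peaks, up to 3100, lay elsewhere.

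An hnRNPU peak was far more frequent in members than in regions at large. It was present in 731 of 1444 members, 50.6% (interval 48.0 to 53.2%), while 15.1% of all 67384 regions and 10.9% of the 51765 regions with at least 1 of the 6 lists and no SAFB or SAFB2 had one. Regions of the 3 ribosome factors without any PSPC1 peak had hnRNPU in 150 of 658, 22.8% (19.8 to 26.2%). Regions with all 3 PSPC1 lists and no ribosome factor had it in 71 of 759, 9.35% (7.48 to 11.6%). The intervals of these 3 classes did not overlap.

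Over regions without SAFB and SAFB2, the share moved with both the number of ribosome-factor lists and the number of PSPC1 lists. With all 3 ribosome factors it was 22.8% without PSPC1, 34.2% of 1534 regions with 1 PSPC1 list, 48.4% of 1061 with 2, and 50.6% with all 3. With all 3 PSPC1 lists it was 9.35% without a ribosome factor, 22.5% of 1779 regions with 1, 39.5% of 1374 with 2, and 50.6% with all 3. By number of lists, the share was thus higher at each step, but from 2 to 3 PSPC1 lists only from 48.4% to 50.6%, with intervals that overlapped (45.4 to 51.4% and 48.0 to 53.2%). With all 3 ribosome factors, regions with more PSPC1 lists were also wider, with medians of 1251, 1459, 1898 and 2591 bp from 0 to 3 lists. With all 3 PSPC1 lists they were not: the medians were 2510, 2835, 2679 and 2591 bp from 0 to 3 ribosome factors.

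**Figure D2:**
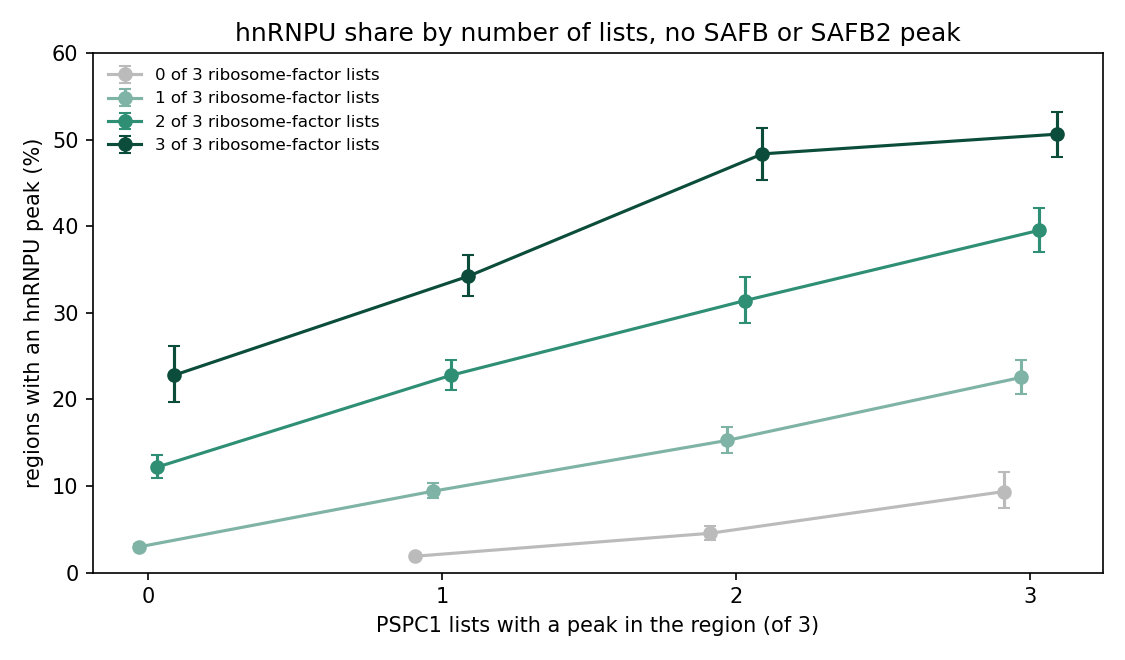
Share of regions with an hnRNPU peak (y axis, %) by the number of PSPC1 lists with a peak (x axis) and the number of ribosome-factor lists (colour), over regions without SAFB and SAFB2; points are shares and bars Wilson 95% intervals (counting error only). The share is highest, 50.6%, where all 3 ribosome factors and all 3 PSPC1 lists meet, and it is 22.8% with the 3 factors and no PSPC1.

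The share was also read for each combination of PSPC1 lists. Among regions of the 3 ribosome factors without SAFB and SAFB2, PSPC1-OE alone went with hnRNPU in 445 of 1265 (35.2%), and the second knock-in library alone in 46 of 177 (26.0%). The first knock-in library alone went with it in 34 of 92 (37.0%, interval 27.8 to 47.2%). Both knock-in libraries without PSPC1-OE gave 57 of 143 (39.9%, 32.2 to 48.0%). PSPC1-OE with 1 knock-in library gave 54.5% of 231 with the first and 48.0% of 687 with the second, so the share in members was above one of these pairs and below the other. The intervals of these last 2 combinations overlap that of the members, at 50.6%. Median UTP6 scores were 175 without PSPC1, 195 and 201 with the first or second knock-in library alone, 206 with both, 224 with PSPC1-OE alone, and 248 in members. They were 252 and 249 for PSPC1-OE with the first or second knock-in library. The lowest median went with the lowest hnRNPU share and the highest with the highest. Between these the order differed in part. PSPC1-OE alone had a higher UTP6 median than both knock-in libraries without it, and a lower share. The intervals of these 2 shares overlapped (32.6 to 37.9% and 32.2 to 48.0%).

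Regions that just missed 1 ribosome factor had hnRNPU less often. It was present in 40.2% of the 1024 regions without CIRH1A (37.3 to 43.3%) and in 37.4% of the 345 without UTP3 (32.5 to 42.6%), both below the interval of the members. Their UTP6 peaks were lower as well, with medians of 166 and 172 against 248 in members.

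The hnRNPU share was then read within bands of width and of UTP6 score, with the cut points taken from the members' quartiles. The end bands are open, so the classes are not matched within them. The narrowest band started at 789 bp in members and at 368 bp in ribosome-factor regions without PSPC1. The highest UTP6 band reached 1181 in members and 634 in those regions. By width, it was 49.3% in the narrowest members (up to 2011 bp), 56.2% and 55.4% in the middle quartiles, and 41.6% in the widest (over 3467 bp). The share in members thus did not rise steadily with width. Among ribosome-factor regions without PSPC1 in the narrowest band, 131 of 589 (22.2%, interval 19.1 to 25.8%) had hnRNPU, and among PSPC1 regions without a ribosome factor 16 of 256 (6.25%). The other bands of the ribosome-factor regions were thin, with 38, 22 and 9 regions; in the widest, 0 of 9 had hnRNPU, which leaves a share of up to 29.9% within the interval. PSPC1 regions without a ribosome factor reached 17.2% of 227 in the widest band.

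By UTP6 score, the hnRNPU share in members was 35.5% in the lowest quartile, 47.9% in the second, 60.4% in the third and 58.7% in the highest. In ribosome-factor regions without PSPC1, it was 15.7% of 370, 34.1% of 132, 28.2% of 103 and 34.0% of 53 in the same bands. Members stood above them in every band, but in the second band the intervals (42.8 to 53.1% and 26.6 to 42.5%) came close together. The quartiles of CIRH1A score gave 40.2%, 47.6%, 57.9% and 56.8% in members, and those of UTP3 score 37.1%, 47.6%, 57.9% and 59.8%. By contrast, the share hardly moved over the quartiles of the knock-in scores, from 48.8% to 51.8% for the first library and from 49.0% to 52.1% for the second. Over the PSPC1-OE quartiles it went from 45.4% to 55.7%.

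**Figure D3:**
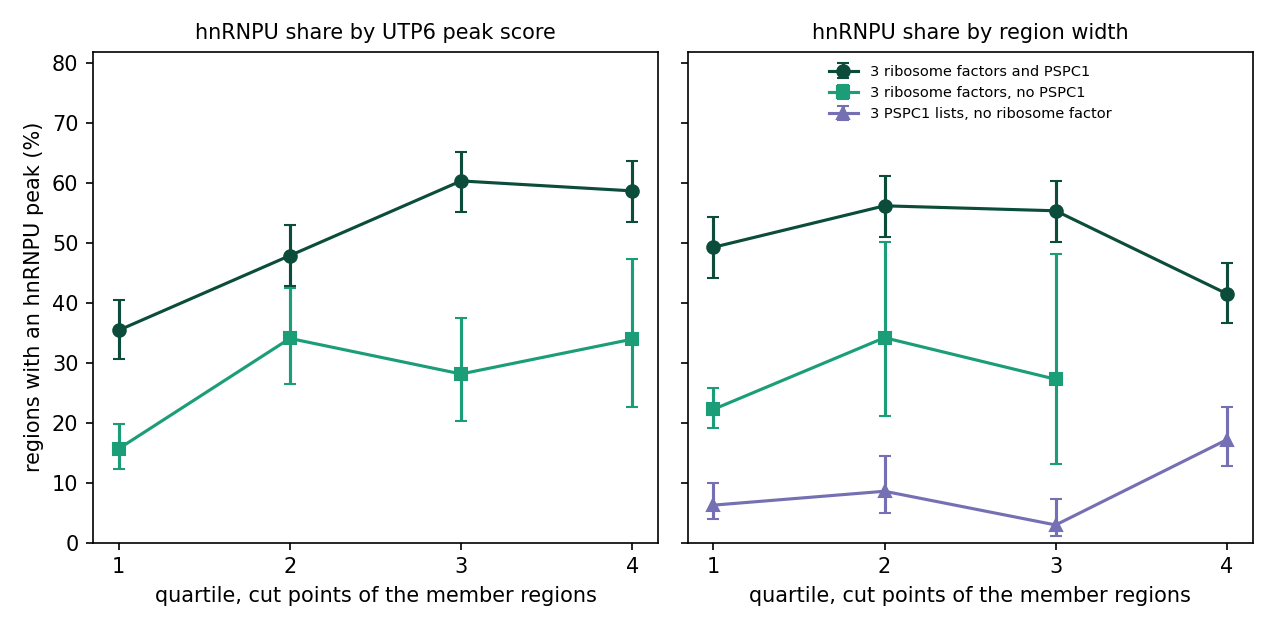
Share of regions with an hnRNPU peak (y axis, %) in quartiles of UTP6 peak score (left) and of region width (right), with cut points set by the members; points are shares, bars Wilson 95% intervals, and bands of fewer than 20 regions are left out. Members (dark circles) lie above the regions of the 3 ribosome factors without PSPC1 (squares) and the regions of the 3 PSPC1 lists without a ribosome factor (triangles, right panel) in each band shown, and their share is lowest, 35.5%, at low UTP6 score.

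Over all members, those with and without hnRNPU differed more in the ribosome-factor scores than in the knock-in scores, an order that did not hold among high peaks alone. The CIRH1A score had a median of 95.1 (quartiles 72.4 and 123.8) with hnRNPU and 81.5 (64.1 and 114.4) without. For UTP3 the medians were 112 and 93.9, and for UTP6 265 and 227. Expressed as overlap, 65.5% of the members with hnRNPU were above the median CIRH1A score of those without, 66.2% for UTP3 and 68.3% for UTP6, where 50% would mean no shift. The distributions overlapped widely: CIRH1A scores ran from 50.0 to 978 with hnRNPU and from 50.1 to 1274 without. For PSPC1-KI the medians were 94.6 against 90.7 in the first library and 113.6 against 114.1 in the second, and 51.8% and 49.8% lay above. PSPC1-OE stood between, with 206 against 186 and 56.2% above. The ribosome-factor difference was smaller or of the other sign when lists were cut to high peaks. The cut also applied to hnRNPU, SAFB and SAFB2. A region with only a lower hnRNPU peak then counted as without hnRNPU, and one with only a lower SAFB peak could become a member. The split by hnRNPU thus changed along with the peaks, and its part was not tested. With the upper 50% of each list there were 511 members, and the share above was 50.6% for CIRH1A, 56.2% for UTP3 and 54.2% for UTP6. With the 6670 highest peaks of every list there were 291 members, and it was 51.5%, 41.1% and 42.3%. In the first knock-in library the share above went the other way, to 61.0% (54.9 to 66.9%) with the upper 50% and 65.0% (57.4 to 71.9%) with the 6670 highest peaks, and it was 57.7% with scores of 50 or more. The second knock-in library gave 49.0%, 52.8% and 46.6% in these 3 settings, so the 2 libraries of PSPC1-KI did not move alike.

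**Figure D4:**
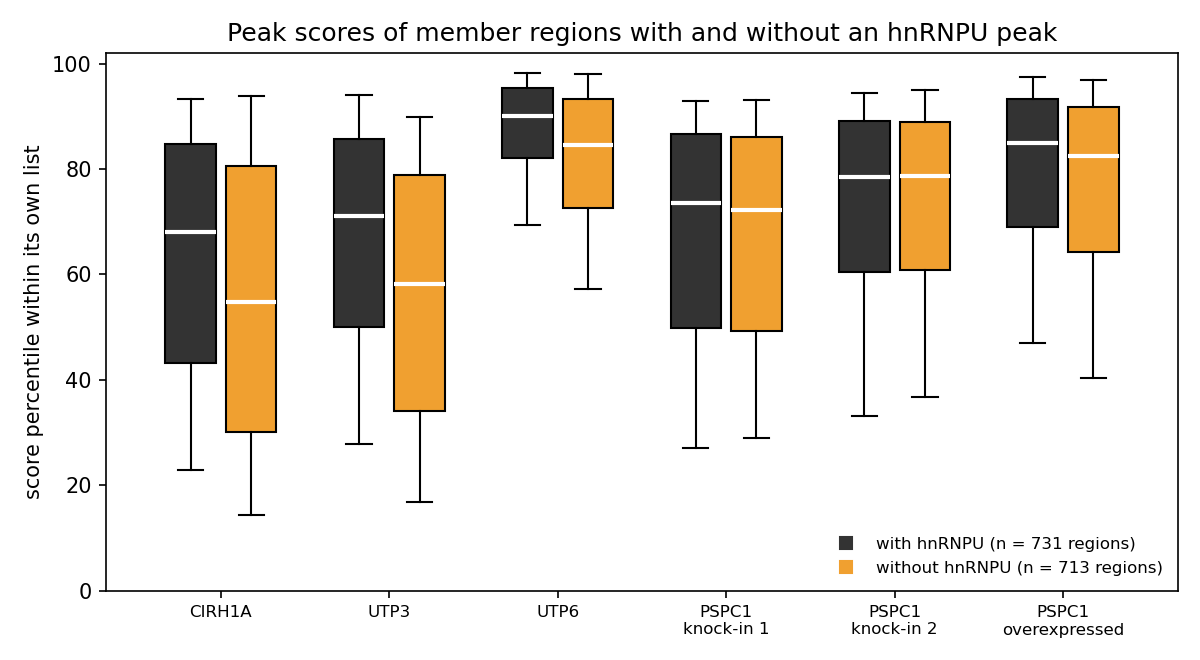
Score percentile of the best peak of each member within its own list (y axis, 0 lowest to 100 highest) for the 6 required lists, in members with (black, n = 731) and without (orange, n = 713) an hnRNPU peak; boxes are quartiles, white lines medians and whiskers the 10th and 90th percentiles over regions. The black boxes sit higher for CIRH1A, UTP3 and UTP6, and both colours are nearly level for the knock-in libraries over all members.

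Covered length also differed, and here PSPC1-OE was as far apart as the ribosome factors. With hnRNPU, CIRH1A peaks covered a median 1130 bp against 1007 bp without, UTP3 1387 against 1241 bp, UTP6 1891 against 1699 bp, and PSPC1-OE 796 against 661 bp. Of the members with hnRNPU, 64.0%, 61.4%, 64.8% and 63.9% were above the median of those without, in this order of lists. Knock-in peaks covered 2048 against 2042 bp in the first library and 2069 against 2159 bp in the second. The merged region as a whole was 2556 bp with hnRNPU and 2636 bp without, and 46.4% of the members with hnRNPU were above the median of those without; this small difference took the other sign under several other ways of forming regions. The core was found in 95.5% of members with and 93.4% of members without hnRNPU, with medians of 587 and 534 bp.

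Across the 1444 members, the ribosome factors varied together, and the knock-in scores varied apart from them. Spearman correlations between the scores of 2 ribosome factors were 0.444 to 0.556, with UTP3 and UTP6 the most alike. The 2 knock-in libraries gave 0.737, and each gave 0.375 to 0.393 with PSPC1-OE. Between a ribosome factor and a knock-in library the values were -0.0597 to -0.0451, and between a ribosome factor and PSPC1-OE 0.131 to 0.171. Region width went up with the knock-in scores (0.440 and 0.473) and down with the ribosome-factor scores (-0.221 to -0.111). In the 731 members with hnRNPU, the hnRNPU score gave 0.141 to 0.253 with the ribosome factors and 0.0536 to 0.0760 with the 3 PSPC1 lists. These are descriptions over regions; the 3 ribosome-factor libraries share parental line and fixation, and all members passed the same minimum scores.

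The member with hnRNPU that had the best mean rank was chr17:13742003-13746467 (mm9), 4465 bp long. Its scores were 725 for CIRH1A (rank 51 of its list), 1142 in the UTP3 list (rank 36), 679 in the UTP6 list (rank 71), 1189 and 546 in the knock-in libraries and 765 for PSPC1-OE. Its hnRNPU peak, at chr17:13743515-13746098, scored 336 and ranked 101 in its list. The CIRH1A, UTP3, UTP6 and hnRNPU peaks all began and ended within the knock-in peaks, while PSPC1-OE was split into 3 peaks of 992, 301 and 1204 bp. The next, chr13:74665556-74668712, had 479 for CIRH1A, 608 for UTP3, 448 for UTP6, 1538 and 1229 in the knock-in libraries, 414 for PSPC1-OE and 367 for hnRNPU. Both were high in all 7 lists.

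The member without hnRNPU that had the best mean rank was chr4:139814211-139816294, 2084 bp long. It scored 804 for CIRH1A (rank 45), 379 for UTP3 (rank 122), 771 for UTP6 (rank 56), 405 and 669 in the knock-in libraries and 460 for PSPC1-OE. Its 6 peaks lay one inside another around a core of 425 bp at chr4:139814880-139815304. On the same chromosome, chr4:150978173-150979881 had the highest CIRH1A score (1274) and the highest UTP6 score (1181) of all members, with 636 for UTP3, 416 and 451 in the knock-in libraries and 307 for PSPC1-OE. Strong ribosome-factor peaks were thus also found without an hnRNPU peak.

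The other leading members differed in which lists ranked them highest. With hnRNPU, chr1:99991078-99993593 had 123 for CIRH1A (rank 1517), 183 for UTP3 (rank 1114) and 387 for UTP6 (rank 838). It had 699 and 576 in the knock-in libraries (ranks 927 and 1072), 874 in PSPC1-OE (rank 227) and 123 for hnRNPU. PSPC1-OE thus ranked it highest. In chr3:96040564-96045067, also with hnRNPU, the CIRH1A peak ranked 204, the UTP3 peak 332 and the UTP6 peak 798, while the knock-in peaks ranked 2187 and 1902, the PSPC1-OE peak 471 and the hnRNPU peak 5329. Here the CIRH1A and UTP3 peaks had the best rank numbers. Their lists hold 9689 and 14562 peaks against 40217 for UTP6, so these ranks do not compare as shares of a list. Without hnRNPU, chr8:86396736-86401245 had its highest ranks in the first knock-in library (rank 11) and PSPC1-OE (rank 53), and ranked 2011 for CIRH1A, 1792 for UTP3, 566 for UTP6 and 308 in the second knock-in library. The remaining leaders without hnRNPU ranked higher for UTP6 than in the knock-in libraries: chr1:55418791-55422026 ranked 90 for UTP6 against 1765 and 1122, and chr6:121422642-121425089 ranked 122 against 2734 and 1822.

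A small set of members was very wide. Of the 23 members of 10 kb or more, 8 lay on chromosome 1 and 8 on chromosome 8, and 7 (30.4%, interval 15.6 to 50.9%) had hnRNPU. In them, knock-in peaks covered a median 12647 and 11473 bp and reached a median score of 3100, the value at which scores pile up, while CIRH1A peaks covered 1264 bp at a median score of 70.8. The narrower members had median CIRH1A scores of 88.9, and 51.0% of them had hnRNPU. The length of the wide members thus came from the knock-in peaks.

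The widest member, chr6:52105125-52132345, showed this most plainly. Single knock-in peaks of 27221 and 25658 bp spanned it, whereas the only CIRH1A peak (775 bp, score 60.0) and the only UTP3 peak (1143 bp, score 54.1) lay near its left end. The hnRNPU peak (896 bp, score 56.7), 1 of 2 UTP6 peaks and 1 of 4 PSPC1-OE peaks lay with them, around a core of 623 bp at chr6:52108329-52108951. A second UTP6 peak and the highest PSPC1-OE peak (score 555) lay about 17 kb to the right, with no CIRH1A, UTP3 or hnRNPU peak. In chr8:111217654-111243191, the member with the most peaks (16), CIRH1A, UTP3 and UTP6 had 2 peaks each and the knock-in libraries 3 and 4, and none was of hnRNPU. The longest core, 2659 bp, was in chr16:35538765-35549015, where it equalled the PSPC1-OE peak; there, CIRH1A, UTP3 and UTP6 peaks were 3312, 3504 and 3333 bp long and the hnRNPU peak covered 2531 bp.

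Members were crowded on chromosome 1. It held 287 of them, 19.9% (interval 17.9 to 22.0%), compared with 6.38% of the ribosome-factor regions without PSPC1 and 6.46% of the PSPC1 regions without a ribosome factor. Over the 51765 regions with 1 or more of the 6 lists and no SAFB or SAFB2, chromosome 1 held 14.1%, so the members' share was above this background by less than it was above the 2 classes. Of the regions of the 3 ribosome factors without SAFB and SAFB2, 53.2% of 539 on chromosome 1 were members, against 21.6% to 33.3% on the other 18 autosomes. The knock-in lists themselves leaned to this chromosome, with 22.417% and 18.996% of their peaks there, against 10.1% for CIRH1A, 10.9% for UTP3, 8.91% for UTP6, 7.93% for PSPC1-OE and 8.19% for hnRNPU. Among regions of the 3 ribosome factors, chromosome 1 held 4.51% of those with PSPC1-OE alone and 29.4% of those with both knock-in libraries and no PSPC1-OE. Knock-in peaks of members were also higher there, with medians of 123 and 155 against 84.9 and 104 elsewhere, while UTP6 medians were 246 and 249. What part the knock-in lists' lean to chromosome 1 has in the members' number there was not tested; without chromosome 1 the hnRNPU share of members was 51.2% of 1157.

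hnRNPU did not follow the crowding. It was present in 139 of the 287 members on chromosome 1 (48.4%, 42.7 to 54.2%), close to the share over all members, although the background of hnRNPU on that chromosome was low (5.97% of 7299 regions with 1 or more of the 6 lists). The highest share among chromosomes was 75.0% of 48 members on chromosome 12 (61.2 to 85.1%), followed by 66.7% of 54 on chromosome 6 and 65.2% of 69 on chromosome 9. The lowest on an autosome was 38.4% of 73 on chromosome 7 (28.1 to 49.8%). Chromosomes 12 and 6 also had high backgrounds, 19.2% and 16.3%. Chromosome X had 4 members, 2 of them with hnRNPU, out of 62 such regions of the 3 ribosome factors.

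**Figure D5:**
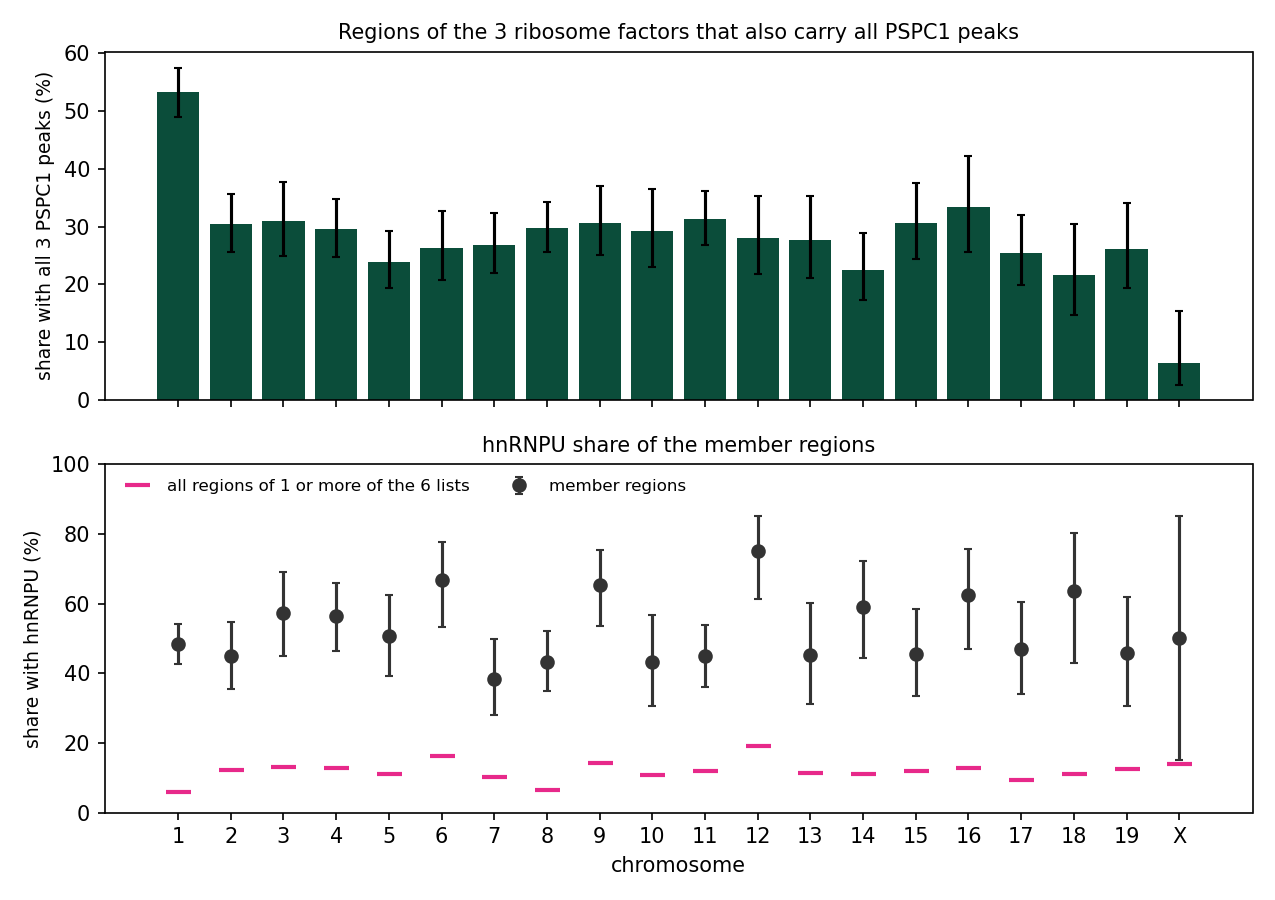
Top, share of the regions of all 3 ribosome factors, without SAFB and SAFB2, on each chromosome that are members (y axis, %); bottom, share of members with an hnRNPU peak (points, %) beside the share over all regions with 1 or more of the 6 lists and no SAFB or SAFB2 (dashes); bars are Wilson 95% intervals. Chromosome 1 stands out in the top panel at 53.2%, and in the bottom panel its share, 48.4%, is within the range of the other chromosomes.

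Members also lay close to one another. The median distance to the nearest member was 242 kb, and 30.1% had another member within 100 kb. These values were 929 kb and 13.7% for the fewer ribosome-factor regions without PSPC1, and 549 kb and 21.9% for the PSPC1 regions without a ribosome factor; a larger class is closer spaced, and the class sizes differ. Of 259 neighbouring pairs within 100 kb, 57.9% were alike in hnRNPU (56 pairs with it at both, 94 at neither). Of 1163 neighbouring pairs further apart, 54.8% were alike (345 with it at both, 292 at neither). Close pairs were thus little more often alike. Among the alike pairs, hnRNPU at neither was the more frequent within 100 kb and hnRNPU at both the more frequent further apart.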

How the data were processed

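Per the file headers and values, the 9 deposited lists give a chromosome, start, end, name and score per peak. The score is the authors' own and has no stated unit; start and end are other values, in bp. Peak names carry the word MACS, 1 list was deposited per library, and the MACS version, threshold and control are not given in the sources used here. The submitters' processing notes name mm9, CASAVA, Bowtie2 and TopHat. Positions are mm9, counted from 1. Gene annotation and sequence of mm9 were not used here, so regions carry no gene names.

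Peaks of all lists were merged from 1 bp shared, and a region's score is its best peak's. The merging was counted again with bedtools. The merging, the rule and the core were also tested on simulated lists. There, each site had at most 1 peak per list and all its peaks shared a position. Chained peaks and members without a core were thus not covered by that test. Read depth is unknown, so a missing peak is a peak not called. Named regions were the 5 members with and the 5 without hnRNPU with the best mean rank over the 6 lists, the widest, the longest core, the most peaks and the weakest. The members, comparison classes and alternatives were chosen with earlier results of these data known. Scripts ran in Python 3.11.15 with pandas 2.3.3 and numpy 2.4.6; intervals came from scipy 1.17.1, figures from matplotlib 3.10.9.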

Additional observations from a re-analysis of the deposited data

How the results depend on the processing

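The hnRNPU share of members was above that of both comparison classes under all 12 alternatives that gave all 3 shares. Of these, 2 were chosen after seeing the data (hnRNPU peaks left out of the merging, and SAFB and SAFB2 regions kept). With direct overlap the units differed: members and the ribosome-factor class were single CIRH1A peaks, and the PSPC1 class was single PSPC1-OE peaks. Median widths in these lists were 853 and 326 bp, so the share of that PSPC1 class is not like for like. The number of members fell from 1444 to 511 with the upper 50% of each list and to 291 with 6670 peaks in every list. The hnRNPU share moved outside its interval to 53.9% with 500 bp windows at peak midpoints, 56.0% with 6670 peaks (36.9% and 17.2% in the comparison classes) and 55.3% with SAFB and SAFB2 regions kept. Within quartiles of width it was 56.2%, 55.4% and 41.6% in quartiles 2 to 4, and within quartiles of UTP6 score 35.5%, 47.9%, 60.4% and 58.7%. The chromosome 1 share was 30.9% with the upper 50%, 27.1% with 6670 peaks, 22.9% with scores of 50 or more and 22.2% with SAFB and SAFB2 regions kept. Without PSPC1-KI replicate 1 or 2, it was 16.0% and 18.6% of 2128 and 1671 members, the hnRNPU share was 49.8% and 51.0%, and a core was found in 95.8% and 95.5%. A core was found in 57.4% of members with 500 bp windows, 97.5% with the upper 50% and 97.6% with 6670 peaks; shorter windows leave less to share by construction.

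The share of members with hnRNPU above the median width of those without was 46.4%. It changed side to 58.8% with 500 bp windows, 52.6% with the upper 50% and 61.4% with 6670 peaks. Without knock-in replicate 1 and 2 it was 52.4% and 55.3%. With direct overlap it was 64.0%, but there the width was that of the CIRH1A peak and not of a merged region. The covered length of CIRH1A peaks gave 64.0% over the merged members as well. For UTP3 and UTP6 scores the share above changed side to 41.1% and 42.3% with 6670 peaks. The cause was not tested. Over the 9 results of this kind and the comparison shares, 86 of 106 values stayed within the interval and 12 moved (6 up, 6 down). The other 8 were counted as changed side, the direct-overlap width among them although it measures another width. No paired analysis was possible because PSPC1-KI is the only group with more than 1 library among those with a peak list. The promoter share and GC content were not run, and the core was not computed for direct overlap.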

Other observations

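The 497 regions with all 6 lists and a SAFB or SAFB2 peak, which the members exclude, had an hnRNPU peak in 343 cases, 69.0% (interval 64.8 to 72.9%), against 50.6% in members. With SAFB only it was 67.3% of 220, with SAFB2 only 60.3% of 126, and with both 78.8% of 151. The 3 lists share fixation, DNase I treatment and streptavidin purification, so a tie between the proteins and a tie between the protocols cannot be told apart. These regions had a median width of 2873 bp, against 2591 bp in members.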
